A study of Mus musculus with 9 samples.

Results

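The 40 genes studied belong to the Wnt, Notch and Hedgehog pathways and were followed in 3T3-L1 preadipocytes, a mouse fibroblast line that can be turned into fat cells in culture. They were chosen by name: every probe for a gene whose listed name, or an older synonym of it, was one of the 40 entered, which gave 68 probes, on an array whose probes were assigned to 27729 genes in all. By role they were 6 Wnt ligands, 8 Wnt receptors and co-receptors, 4 secreted Wnt inhibitors, 3 genes of beta-catenin and its destruction complex, 3 TCF/LEF factors, 3 Notch receptors, 3 Notch ligands, 3 Notch target factors, 3 genes of the Hedgehog receptor side, 3 Gli factors and Sox9. All cells had been grown in 10% fetal bovine serum and starved of serum for 48 h. Treated cells then received X-3 at 70 µM or X-1 at 70 µM for 24 h, both called mangiferin derivatives in the series title, and control cells were left untreated, with no vehicle named in the labels. Each group had 3 one-colour arrays, 9 in all. The design text speaks of separate experiments without saying whether they were separate cultures, so p-values measure the spread between these samples.

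Wnt proteins bind Frizzled receptors together with the co-receptors Lrp5 and Lrp6, which keeps beta-catenin from being degraded by the Axin-containing destruction complex and lets it act with TCF/LEF factors on target genes. Notch receptors are cut when Jagged or Delta ligands on a neighbouring cell bind them, and the freed part switches on Hes and Hey repressors. Hedgehog ligands relieve the block that Ptch1 places on Smo, and Gli factors carry the signal to the nucleus. In preadipocytes, Wnt and Hedgehog signalling are best known for holding back fat cell formation, and Notch and Sox9 are linked to the undifferentiated state.

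A level below is the log2 intensity of a gene's brightest usable probe relative to the 75th percentile of gene spots on the same array, so levels compare arrays, not genes. Each array had 43379 gene spots, of which 57.9% to 67.1% were well above background and 0 were saturated. The 12 fibroblast and preadipocyte markers checked were above background on every array, and of 7 mature adipocyte markers 0 were so on all 3 arrays of any group, with a summed linear level of 0.0847 to 0.0959 in X-3 arrays, 0.0666 to 0.0867 in X-1 arrays and 0.0426 to 0.0465 in control arrays. Of 5 macrophage and leukocyte markers 3 were above background in each group (Cd68, Cd14 and Csf1r), with a summed linear level of 3.29 to 3.67 in X-3 arrays, 2.67 to 3.21 in X-1 arrays and 1.5 to 1.84 in control arrays. Of that list, Adgre1 was above background on 0 arrays and Ptprc on 1 X-3 array. The 4 epithelial markers summed to 0.415 to 0.491 in X-3 arrays, 0.272 to 0.343 in X-1 arrays and 0.0882 to 0.103 in control arrays, with Epcam and Cdh1 above background on 0 arrays. Krt8 was above background on all arrays, at -1.41 to -1.17 in X-3 arrays, -2.01 to -1.63 in X-1 arrays and -3.78 to -3.55 in control arrays. Krt18 was above background on 3 X-3, 0 X-1 and 1 control arrays. Of the endothelial list only Tek, of 4 markers, and of the muscle list only Myod1, of 3, was above background on all arrays. The part of these markers in the results below was not tested.

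X-3 replicate 1 stood apart from the other X-3 arrays. Over 16736 genes it correlated at 0.974 and 0.975 with X-3 replicates 2 and 3, which correlated at 0.997 with each other, and it correlated at 0.973 to 0.977 with the X-1 arrays. Between it and those 2 arrays, 11.8% and 11.6% of genes differed by over 2-fold, against 0.717% between replicates 2 and 3. X-3 results are therefore also given without it. Same-numbered arrays shared a slide, with X-3 always at place 3, X-1 at place 2 and control at place 1, so place on the slide and group cannot be told apart.

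A gene was tested where 1 or more groups had all 3 arrays well above background for the same probe, as 31 of the 40 genes did. The other 9 (Wnt10b, Sfrp1, Dkk2, Axin2, Tcf7, Dll1, Hey2, Hhip and Gli1) were too dim in every group, among them Axin2, a standard readout of beta-catenin, at background on all 9 arrays. A gene that entered only through the groups in which it was bright had to differ where it was at background in the others. Among the members called, that applies to Ptch1 and Dkk3, through the treated arrays, and to Wnt10a, through the control arrays, so their calls were favoured by the filter. The probes of Jag2 and Fzd5 were also not above background on every array, missing it on 1 X-1 and 1 X-3 array, and neither was called. In the limma fit (Benjamini-Hochberg adjusted p under 0.05 over all 16736 genes), X-3 treatment raised 10 and lowered 13 of the 31 relative to control, 23 in all. Of all genes tested, 55.7% were called in that comparison (29.3% higher and 26.4% lower), so the large count for these pathways stood beside a large count for the transcriptome. X-1 treatment raised 12 and lowered 11, also 23 in all, against 56.5% of all genes (28.2% higher and 28.3% lower). Scaling to spike-in RNA ended 6 of the X-3 rises (Wnt4, Wnt5b, Axin1, Notch2, Hey1 and Sox9) and, with X-1, turned 5 (Wnt4, Wnt5b, Notch2, Hes1 and Sox9) negative and ended the calls of Fzd7, Dkk3 and Notch1. The median difference of the 31 was 0.39 with X-3 and 0.35 with X-1 on the log2 scale, and that of all genes was 0.06 in both. Among the 27 with a probe above background on all 9 arrays, 21 were called with X-3 and 21 with X-1, against 56.8% and 57.8% of genes so filtered. Fewer cells of a type and less RNA per cell cannot be told apart in such samples.

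At least a 2-fold difference was called for 8 genes higher and 8 lower with X-3, against 14.4% and 12.8% of all genes, and for 6 higher and 8 lower with X-1, against 15.2% and 14.7%. The X-3 and control arrays did not overlap for 26 of the 31 genes (62.2% of all genes), and the X-1 and control arrays did not overlap for 25 (68.5% of all genes). Every called gene kept its sign on all 3 slides in both comparisons. On leaving out each of the 9 arrays in turn, 22 of the 23 X-3 calls and 18 of the 23 X-1 calls always held. Without X-3 replicate 1, all 23 X-3 calls remained and Wnt5a and Fzd5 were added. The 2 comparisons share their control arrays, so values for X-3 and X-1 are given side by side.

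**Figure D1:**
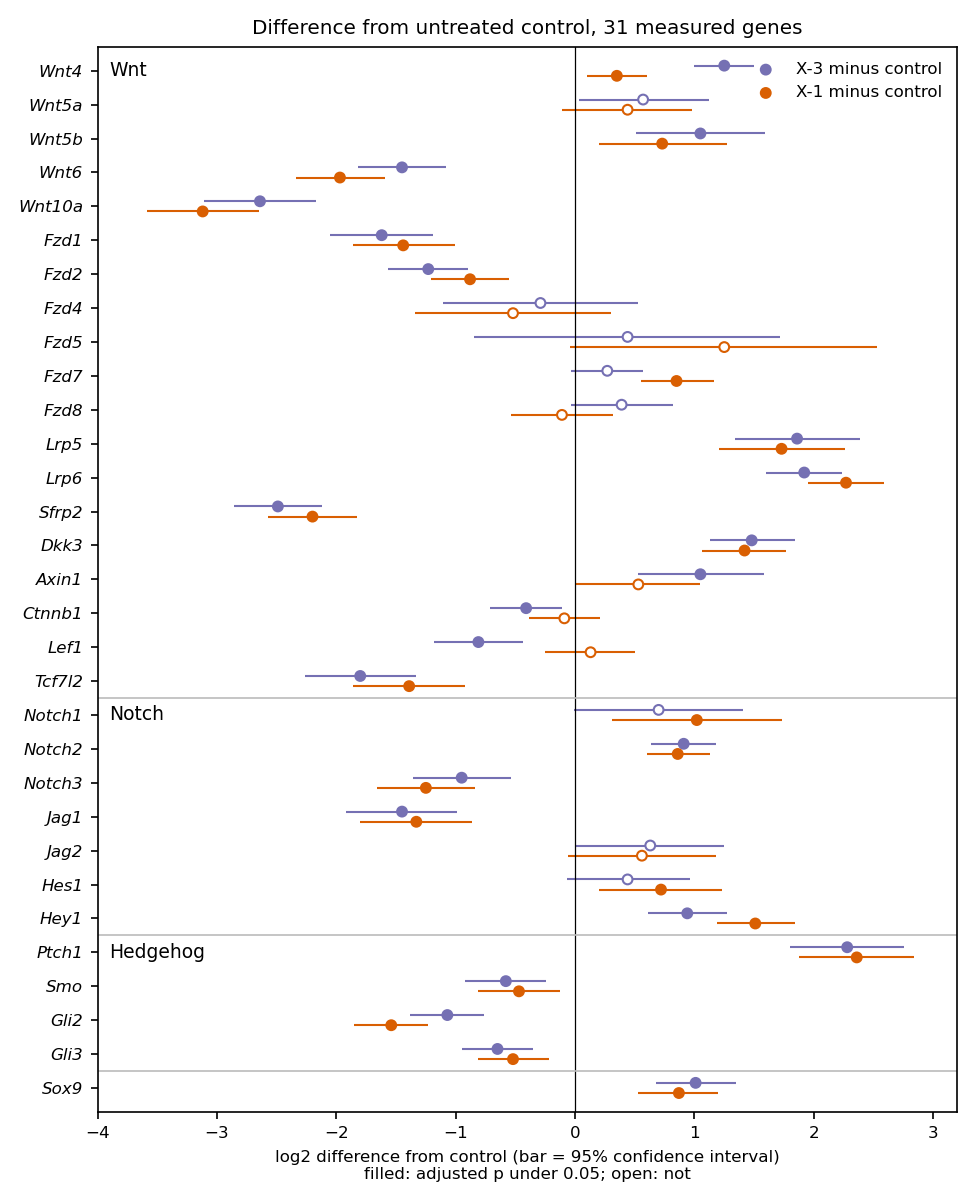
The log2 difference from control (x axis) of each of the 31 measured genes, ordered by pathway (y axis), for X-3 and X-1, with 95% confidence intervals. Filled points passed an adjusted p of 0.05. Wnt10a and Sfrp2 lie furthest to the left and Lrp6, Ptch1 and Lrp5 furthest to the right for both compounds. The Ptch1 points and the Wnt10a point of X-1 are measured differences against arrays not well above background.

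Of 19 measured Wnt genes, 6 rose and 8 fell with X-3 (73.7% called, against 55.7% of all genes), and 6 rose and 6 fell with X-1 (63.2%, against 56.5%). Among the ligands, Wnt6 and Wnt10a fell with both compounds while Wnt4 and Wnt5b rose. Wnt6, a ligand known to restrain adipogenesis, stood at 0.55, 0.10 and -0.05 in the X-3 arrays and at -0.41, -0.17 and -0.37 in the X-1 arrays, against 1.56, 1.65 and 1.73 in control arrays. Every treated array lay below every control array. The log2 difference was -1.45 ± 0.17 with X-3 (SE, adjusted p 9.07e-05) and -1.97 ± 0.17 with X-1 (adjusted p 1.19e-05). A second Wnt6 probe gave -2.31 and -2.59.

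Wnt10a, another ligand that holds back fat cell formation, read -5.81, -5.60 and -5.80 in X-3 arrays and -6.62, -6.29 and -5.74 in X-1 arrays, against -3.24, -3.01 and -3.04 in control arrays. It was well above background on 2 of 3 X-3 arrays, 0 of 3 X-1 arrays and 3 of 3 control arrays. With X-3 it differed by -2.64 ± 0.21 (adjusted p 1.04e-05), and with X-1 it was at least 5.97-fold lower (adjusted p 3.17e-06; measured means -6.22 and -3.10).

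These 2 ligand genes are neighbours on mouse chromosome 1, Wnt6 at chr1:74754342-74785322 and Wnt10a at chr1:74792019-74804176 (RefSeq, GRCm38.p6), with 6696 bases between them. The window that reaches 100000 bases past them on both sides holds 9 protein-coding genes, of which 6 were tested. With X-1, the called genes in the window were these 2 lower and Cfap65 higher (0.80). With X-3, Ttll4 was also lower (-0.77), and Cfap65 (0.87) and Cdk5r2 (1.08) were higher. Fev, between Cdk5r2 and Cfap65, was not called with X-3 (0.27, adjusted p 0.17) or X-1 (0.21, adjusted p 0.268).

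Wnt4 and Wnt5a were each read by 1 probe that crosses an intron, so its letters come from joined exons. The 60-base sequences, as the array files give them (mm9, plus strand), are shown because Wnt4 was called between the compounds and Wnt5a was not, and the letters show how far the 2 probes differ; capitals mark the 25 of 51 aligned bases that are identical in the best ungapped alignment.
Wnt4, chr4:136851690-136852258: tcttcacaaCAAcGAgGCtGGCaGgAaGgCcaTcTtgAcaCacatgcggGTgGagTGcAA
Wnt5a, chr14:29331746-29335708: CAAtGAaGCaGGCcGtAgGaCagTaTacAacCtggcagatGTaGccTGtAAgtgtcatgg

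Wnt4, a ligand able to signal with and without beta-catenin, stood at 0.25, 0.12 and 0.07 in X-3 arrays and at -0.70, -0.77 and -0.79 in X-1 arrays, against -1.21, -1.06 and -1.03 in control arrays. The 3 groups did not overlap. It rose by 1.25 ± 0.11 with X-3 (SE, adjusted p 2.06e-05), a call lost with spike-in scaling (0.43, adjusted p 0.208). With X-1 it rose by 0.35 ± 0.11 (adjusted p 0.0244). That X-1 call was lost on leaving out any one X-1 array or control replicate 1 or 2 (adjusted p up to 0.0734). It was also lost with median scaling (0.13, adjusted p 0.604), normexp (0.26, adjusted p 0.093) and no filter on dim probes (adjusted p 0.0726). With spike-in scaling the sign of the X-1 difference turned (-0.64, adjusted p 0.0499).

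Wnt5b, a ligand that mainly signals without beta-catenin, read -4.22, -3.31 and -3.33 in X-3 arrays and -4.0, -3.83 and -3.99 in X-1 arrays, against -4.86, -4.61 and -4.54 in control arrays. All treated arrays were above all control arrays, with X-3 replicate 1 the lowest of the treated. It rose by 1.05 ± 0.24 with X-3 (adjusted p 0.00474) and by 0.73 ± 0.24 with X-1 (adjusted p 0.0259). The X-1 call was lost without any one X-1 array or control replicate 1 or 2 (adjusted p up to 0.0803). It was also lost with median scaling (0.51, adjusted p 0.0608) and no filter on dim probes (adjusted p 0.0572). With spike-in scaling the X-3 difference was 0.55, not called (adjusted p 0.103), and the X-1 difference turned to -0.23. With the normexp background correction neither was called (0.38 with X-3, adjusted p 0.18, and 0.23 with X-1, adjusted p 0.422). A second Wnt5b probe, above background on 1 array of each group and so not tested, differed by -0.05 with X-3 and 0.29 with X-1. Wnt5a, the closest relative of Wnt5b, was not called with X-3 (0.57, 95% confidence interval 0.03 to 1.12) or with X-1 (0.44, interval -0.11 to 0.98). Without X-3 replicate 1, Wnt5a was called with X-3 (0.72, adjusted p 0.0335), as it was without control replicate 1 (0.76, adjusted p 0.031).

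On the receptor side, both Lrp co-receptors rose and Fzd1 and Fzd2 fell with both compounds, Fzd7 rose with X-1, and Fzd4, Fzd5 and Fzd8 were not called. Lrp5, a co-receptor for Wnt, stood at 2.69, 2.26 and 2.12 in X-3 arrays and at 2.67, 2.07 and 1.95 in X-1 arrays, against 0.78, 0.32 and 0.39 in control arrays. The treated arrays were all above the control arrays, and array 1 was the highest in each group. The differences were 1.86 ± 0.23 with X-3 (adjusted p 0.000154) and 1.73 ± 0.23 with X-1 (adjusted p 0.000205).

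Lrp6, the second co-receptor, read 0.01, -0.43 and -0.32 in X-3 arrays and 0.05, 0.21 and 0.05 in X-1 arrays, against -2.08, -2.12 and -2.29 in control arrays. Treated and control arrays were far apart. It rose by 1.92 ± 0.14 with X-3 (adjusted p 7.06e-06) and by 2.27 ± 0.14 with X-1 (adjusted p 2.16e-06). This probe comes from a separate transcript record and lies at chr6:134491492-134491551 (mm9), while another probe, at chr6:134400356-134400415, gave 1.23 and 1.43.

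Fzd1, a Wnt receptor, stood at 4.55, 3.87 and 3.88 in X-3 arrays and at 4.28, 4.29 and 4.27 in X-1 arrays, against 5.87, 5.70 and 5.58 in control arrays. No treated array reached the control range. Its differences were -1.62 ± 0.19 with X-3 (adjusted p 0.000101) and -1.44 ± 0.19 with X-1 (adjusted p 0.00018).

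Fzd2, a receptor often linked to Wnt5a, read 3.04, 2.62 and 2.78 in X-3 arrays and 2.99, 3.35 and 3.15 in X-1 arrays, against 4.05, 3.99 and 4.11 in control arrays. All treated arrays were lower. The fall was -1.23 ± 0.15 with X-3 (adjusted p 0.000118) and -0.88 ± 0.15 with X-1 (adjusted p 0.000801). A dimmer Fzd2 probe, closer to the end of the transcript, read -3.33, -4.0 and -4.03 in X-3 arrays and -3.95, -3.98 and -4.41 in X-1 arrays, against -0.72, -1.12 and -0.96 in control arrays, a difference of -2.85 and -3.18. Both probes fell, by amounts that differed by 1.62 with X-3 and 2.30 with X-1 on the log2 scale.

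Fzd7, a receptor for several Wnt proteins, stood at 0.23, -0.05 and 0.14 in X-3 arrays and at 0.60, 0.79 and 0.68 in X-1 arrays, against 0.0, -0.17 and -0.34 in control arrays. X-1 arrays were above all others, and X-3 and control arrays overlapped. It rose with X-1 (0.85 ± 0.13, adjusted p 0.000563) and was not called with X-3 (0.27, interval -0.03 to 0.57). Its second probe gave -0.66 with X-3 and -0.45 with X-1, neither called, and the mean of both probes was not called with X-1 (0.20, adjusted p 0.575). With spike-in scaling the X-1 difference was 0.08 and not called (adjusted p 0.811).

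Fzd5 was not called with X-3 (0.44 ± 0.57) or X-1 (1.25 ± 0.57). Its levels were -5.18, -2.78 and -2.81 in X-3 arrays and -2.73, -2.62 and -2.99 in X-1 arrays, against -3.59, -4.23 and -4.26 in control arrays, so that X-3 replicate 1 was the lowest of all 9. Without that array the difference was 1.23 with X-3 (adjusted p 0.0013) and called with X-1 as well (adjusted p 0.000562), and the second Fzd5 probe was called with all arrays at 1.84 with both compounds. Fzd4 was not called (-0.29 with X-3 and -0.52 with X-1). On replicates 2 and 3 alone Fzd4 was called higher with X-3 (0.33, adjusted p 0.0394) and lower with X-1 (-0.49, adjusted p 0.00935). In that setting it was also called between the compounds (0.82, adjusted p 0.00586). Fzd8 was not called with all arrays (0.39 with X-3 and -0.11 with X-1), though it was with X-3 when X-1 replicate 2 was left out (adjusted p 0.0239).

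The 2 measured secreted inhibitors went opposite ways. Sfrp2, which binds Wnt proteins outside the cell, stood at 1.15, 0.64 and 0.63 in X-3 arrays and at 1.04, 1.20 and 1.03 in X-1 arrays, against 3.45, 3.18 and 3.25 in control arrays. The treated arrays lay far below the control arrays, 5.60-fold lower with X-3 (-2.49 ± 0.16, adjusted p 4e-06) and 4.6-fold lower with X-1 (-2.20 ± 0.16, adjusted p 5.75e-06).

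Dkk3, a divergent member of the Dickkopf family, was dim: -4.78, -4.62 and -4.45 in X-3 arrays and -4.83, -4.76 and -4.47 in X-1 arrays, against -6.32, -6.04 and -5.95 in control arrays, of which 1 of 3 was well above background. Treated arrays were all higher. The difference was 1.48 ± 0.16 with X-3 (adjusted p 5.3e-05) and 1.42 ± 0.16 with X-1 (adjusted p 6.06e-05), and it shrank to 0.29 and 0.31, not called, with the normexp background correction. With spike-in scaling the X-1 call was lost too (0.48, adjusted p 0.146).

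Of the 4 measured genes that act inside the cell, Tcf7l2, the main TCF factor of many tissues, differed most from control. It stood at 1.5, 1.20 and 0.96 in X-3 arrays and at 1.76, 1.59 and 1.53 in X-1 arrays, against 3.44, 2.85 and 2.76 in control arrays. No treated array reached the control range, and the differences were -1.80 ± 0.21 with X-3 (adjusted p 9.43e-05) and -1.39 ± 0.21 with X-1 (adjusted p 0.000388). The 3 other probes of Tcf7l2 were dimmer and ranged between -1.86 (called) and 0.01 with X-3 and between -0.88 and -0.39 with X-1.

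Axin1, a scaffold of the destruction complex, read -0.62, 0.13 and 0.08 in X-3 arrays and -0.30, -0.88 and -0.80 in X-1 arrays, against -1.22, -1.02 and -1.32 in control arrays. It was higher in every treated array than in any control array. It rose with X-3 (1.05 ± 0.23, adjusted p 0.00418) and was not called with X-1 (0.53 ± 0.23, adjusted p 0.0806). The X-1 difference was called when X-3 replicate 1 was left out (adjusted p 0.0212) and with the arrays of the 2 groups alone (adjusted p 0.0358). The X-3 call was lost with spike-in scaling (0.57, adjusted p 0.0905).

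Ctnnb1, which encodes beta-catenin, stood at 3.89, 3.42 and 3.56 in X-3 arrays and at 3.90, 3.98 and 3.94 in X-1 arrays, against 4.02, 4.03 and 4.04 in control arrays. It was slightly lower with X-3 (-0.41 ± 0.13, adjusted p 0.0279), a call lost without X-3 replicate 2 or 3 or any one control array (adjusted p up to 0.104). The X-3 call was also lost with no filter on dim probes (adjusted p 0.0711) and with the arrays of the 2 groups alone (adjusted p 0.0614). With X-1 it was not called (-0.09, interval -0.39 to 0.21). Its 3 probes ranged between -0.68 and 0.22 with X-3 and between -0.25 and 0.35 with X-1.

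Lef1, a factor that also serves as a readout of Wnt signalling in many cells, read -0.62, -0.91 and -1.25 in X-3 arrays and -0.09, 0.06 and 0.06 in X-1 arrays, against 0.02, -0.20 and -0.18 in control arrays. X-3 arrays lay below all others, and X-1 and control arrays overlapped. It fell with X-3 (-0.81 ± 0.16, adjusted p 0.00277) and was not called with X-1 (0.13, interval -0.25 to 0.50). With spike-in scaling the X-1 difference turned negative and was called as well (-0.65, adjusted p 0.044). A second probe gave -0.27 and 0.28, neither called.

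**Figure D2:**
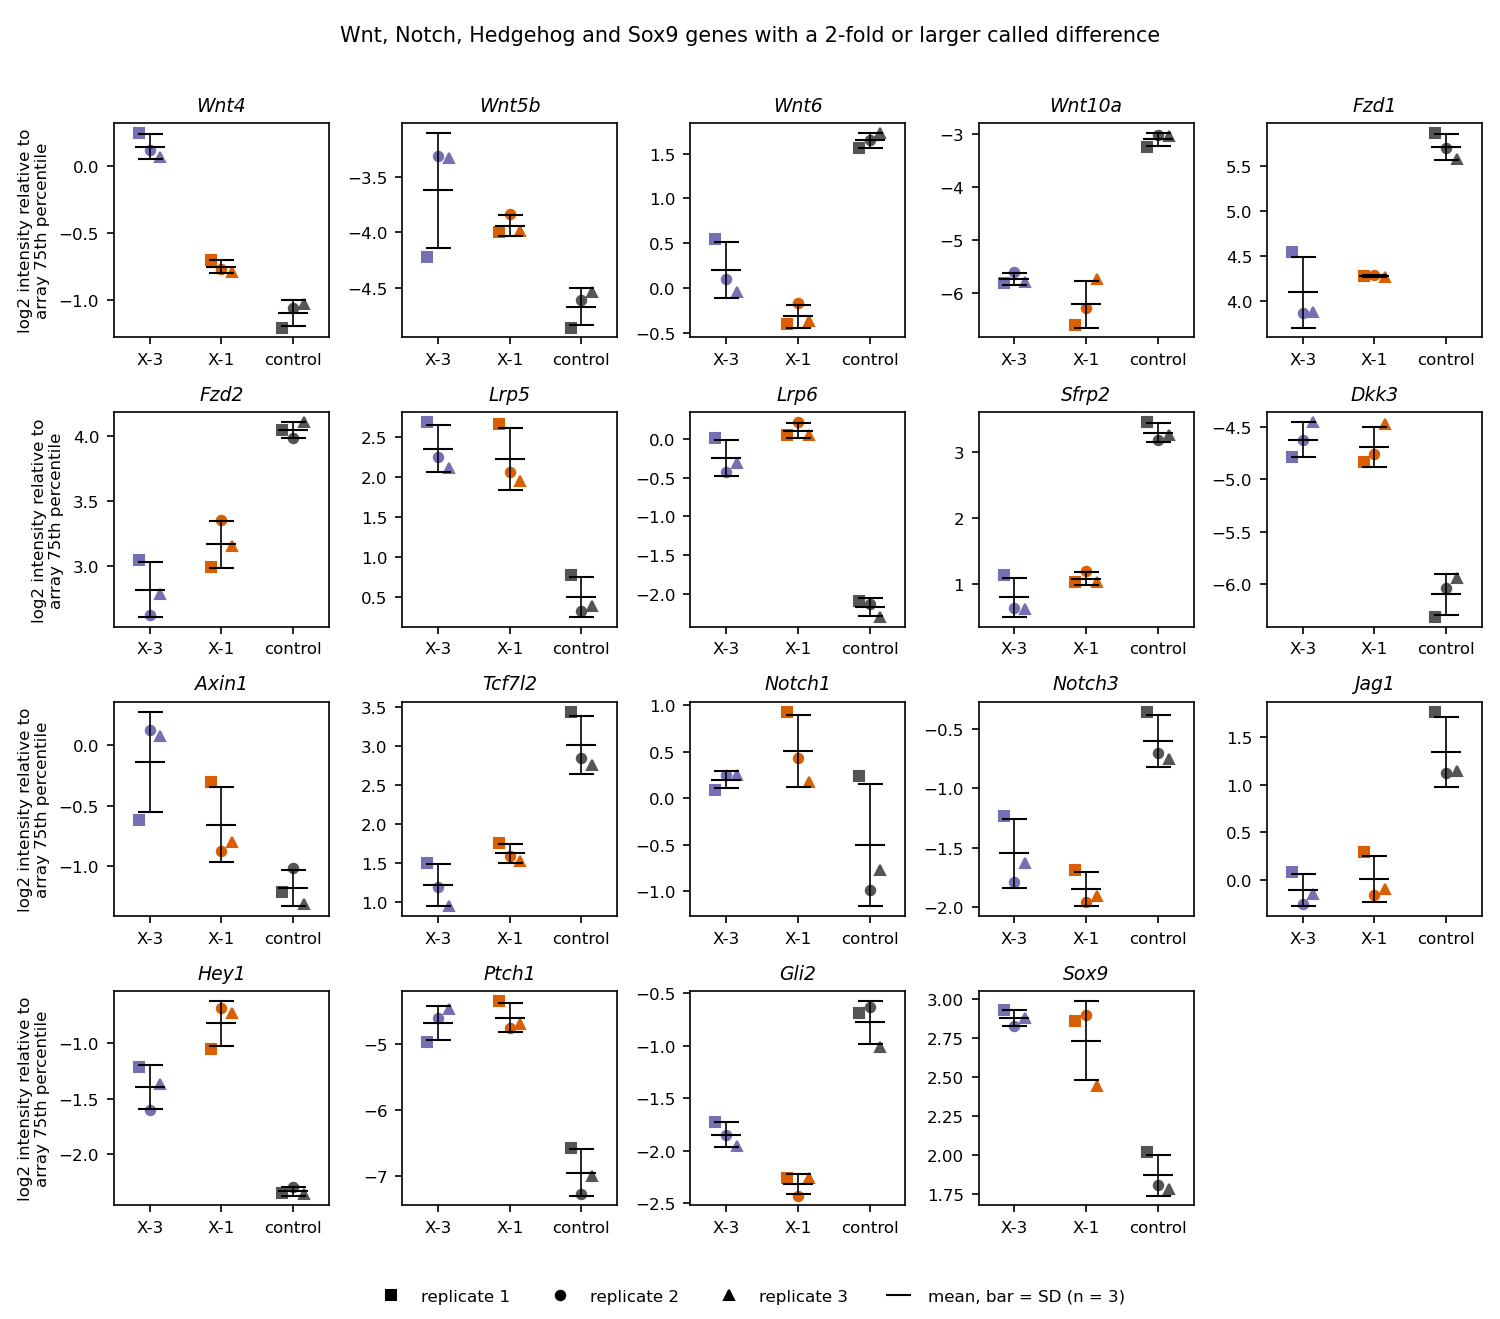
The level on each array (y axis, log2 intensity relative to the array's 75th percentile) of the 19 genes with a called difference of at least 2-fold in X-3 or X-1 against control, with the mean and SD of 3 arrays; the y ranges differ between panels. Treated and control points are apart in most panels; the Ptch1 control arrays and the Wnt10a X-1 arrays were not well above background.

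Of 7 measured Notch genes, 2 rose and 2 fell with X-3, and 4 rose and 2 fell with X-1. That was 57.1% called with X-3, close to the 55.7% of all genes, and 85.7% with X-1, against 56.5%. The receptors split. Notch2, a receptor, stood at 1.83, 1.82 and 1.92 in X-3 arrays and at 1.96, 1.82 and 1.66 in X-1 arrays, against 1.02, 0.96 and 0.86 in control arrays. All treated arrays were higher. It rose by 0.91 ± 0.12 with X-3 (adjusted p 0.000205) and by 0.86 ± 0.12 with X-1 (adjusted p 0.00024), although with spike-in scaling neither was called (0.25 with X-3, adjusted p 0.486, and -0.07 with X-1). Its 2 other probes rose by 2.93 and 1.65 with X-3 and by 2.88 and 1.63 with X-1.

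Notch3, a receptor best known from vessel wall cells, read -1.23, -1.79 and -1.63 in X-3 arrays and -1.69, -1.96 and -1.91 in X-1 arrays, against -0.35, -0.70 and -0.75 in control arrays. Every treated array was lower than every control array. The differences were -0.95 ± 0.18 with X-3 (adjusted p 0.0018) and -1.25 ± 0.18 with X-1 (adjusted p 0.000316).

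Notch1, the receptor studied most, stood at 0.09, 0.25 and 0.25 in X-3 arrays and at 0.93, 0.43 and 0.17 in X-1 arrays, against 0.24, -0.99 and -0.77 in control arrays. Control replicate 1 lay among the treated arrays. It rose with X-1 (1.02 ± 0.31, adjusted p 0.0206), a call lost without X-1 replicate 1 or control replicate 2 or 3 (adjusted p up to 0.0764) and with spike-in scaling (0.28, adjusted p 0.406), and was not called with X-3 (0.70, interval -0.01 to 1.41). Without control replicate 1, the X-3 difference was 1.07 and called (adjusted p 0.0046). A second probe gave 0.65 with X-3 and 0.93 with X-1.

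Of the ligands, Jag1 fell. It stood at 0.08, -0.25 and -0.15 in X-3 arrays and at 0.29, -0.16 and -0.09 in X-1 arrays, against 1.77, 1.12 and 1.15 in control arrays. No treated array reached the control range, and the differences were -1.45 ± 0.21 with X-3 (adjusted p 0.000339) and -1.33 ± 0.21 with X-1 (adjusted p 0.000512). A second probe near background gave 0.23 and -0.45, neither called. Jag2, the related ligand, was not called with all arrays (0.63 with X-3 and 0.56 with X-1). With X-1 it was called when X-3 replicate 1 was left out (adjusted p 0.0394) and on replicates 2 and 3 alone (0.85, adjusted p 0.00608).

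The target factors Hey1 and Hes1, repressors that Notch switches on, were both higher in X-1 arrays. Hey1 stood at -1.21, -1.60 and -1.37 in X-3 arrays and at -1.05, -0.68 and -0.73 in X-1 arrays, against -2.35, -2.29 and -2.36 in control arrays. The groups did not overlap. It rose by 0.94 ± 0.14 with X-3 (adjusted p 0.000552) and by 1.51 ± 0.14 with X-1 (adjusted p 2.61e-05), and the X-3 call was lost with spike-in scaling (0.13, adjusted p 0.718).

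Hes1 read -2.61, -2.61 and -2.44 in X-3 arrays and -2.60, -2.28 and -1.96 in X-1 arrays, against -3.46, -2.87 and -2.67 in control arrays. All treated arrays were above all control arrays, by little for the closest pair. It rose with X-1 (0.72 ± 0.23, adjusted p 0.0234), a call lost without X-1 replicate 2 or 3 or control replicate 1 (adjusted p up to 0.0859), and its difference turned to -0.25 with spike-in scaling. The X-1 call was also lost with median scaling (0.50, adjusted p 0.124), quantile normalization (0.58, adjusted p 0.0642) and normexp (0.45, adjusted p 0.055). It was lost too with no filter on dim probes (adjusted p 0.0527) and in the deposited scores (adjusted p 0.0692). With X-3 Hes1 was not called (0.44, adjusted p 0.129), but was with the slide as a block (adjusted p 0.0399).

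All 4 measured Hedgehog genes were called with both compounds, against 55.7% and 56.5% of all genes: by its brightest probe Ptch1 was higher, and Smo, Gli2 and Gli3 were lower. The calls of Ptch1 and Smo did not hold in every setting or by every probe, and a second Gli2 probe, too dim to test, did not show the fall, as given with each. Ptch1, the Hedgehog receptor and itself a target of the pathway, read -4.96, -4.60 and -4.46 in X-3 arrays and -4.34, -4.75 and -4.69 in X-1 arrays, against -6.58, -7.28 and -7.00 in control arrays, none of which was well above background. It was at least 2.67-fold higher with X-3 (adjusted p 2.63e-05; measured means -4.67 and -6.95) and at least 2.81-fold higher with X-1 (adjusted p 1.77e-05; measured means -4.60 and -6.95). With the normexp background correction the differences were 0.39 and 0.47, not called, and in the deposited scores they were not called either (adjusted p 0.124 and 0.0932). A second Ptch1 probe, above background on 1 array of each group and so not tested, did not show this pattern. It read -4.96, -7.64 and -6.84 in X-3 arrays and -4.32, -6.23 and -6.34 in X-1 arrays, against -4.67, -7.15 and -7.82 in control arrays. Its groups overlapped, and its means differed by 0.07 with X-3 and 0.92 with X-1.

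Gli2, the chief activator among the Gli factors, stood at -1.73, -1.85 and -1.96 in X-3 arrays and at -2.26, -2.43 and -2.26 in X-1 arrays, against -0.69, -0.63 and -1.01 in control arrays. The 3 groups did not overlap. By its brightest probe Gli2 fell by 1.07 on the log2 scale with X-3 (SE 0.14, adjusted p 0.000183) and by 1.54 with X-1 (SE 0.14, adjusted p 1.72e-05). A second Gli2 probe, above background on 2 X-3, 0 X-1 and 1 control arrays and so not tested, did not show this fall. The means of that probe differed by 0.74 with X-3 and by -0.04 with X-1.

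Gli3, which acts mostly as a repressor, stood at 0.15, -0.17 and -0.28 in X-3 arrays and at 0.0, 0.09 and 0.0 in X-1 arrays, against 0.52, 0.59 and 0.54 in control arrays. It was lower in every treated array, by -0.65 ± 0.13 with X-3 (adjusted p 0.00274) and -0.52 ± 0.13 with X-1 (adjusted p 0.00857). Smo, the signal transducer, stood at 5.81, 5.49 and 5.47 in X-3 arrays and at 5.49, 5.83 and 5.77 in X-1 arrays, against 6.01, 6.28 and 6.20 in control arrays, which it did not reach on any treated array. Its brightest probe differed by -0.58 ± 0.15 with X-3 (adjusted p 0.00983) and by -0.47 ± 0.15 with X-1 (adjusted p 0.0248). The X-1 call was lost without X-1 replicate 1 or control replicate 2 or 3 (adjusted p up to 0.0858), and with no filter on dim probes (adjusted p 0.0628). A second, dim probe gave 0.38 with X-3 and -0.24 with X-1, and the mean of both was not called (-0.10 and -0.36).

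Sox9, a progenitor factor that also takes part in Wnt and Hedgehog responses, stood at 2.93, 2.83 and 2.88 in X-3 arrays and at 2.86, 2.90 and 2.44 in X-1 arrays, against 2.02, 1.81 and 1.78 in control arrays. All treated arrays were higher by this probe, by 1.01 ± 0.15 with X-3 (adjusted p 0.000407; with spike-in scaling 0.35, adjusted p 0.31) and 0.87 ± 0.15 with X-1 (adjusted p 0.000907; -0.02 with spike-in scaling). Its 3 probes did not go the same way. The probe that crosses an intron also rose, by 0.97 and 0.58, but was dim (means -3.81 with X-3, -4.20 with X-1 and -4.78 in control arrays). The probe closest to the end of the transcript was lower, -0.85 with X-3 (called) and -0.38 with X-1 (not called). That probe was bright, with means of 1.92, 2.38 and 2.76, and in control arrays it was brighter than the probe used (mean 1.87). The intron-crossing probe is shown because it reads spliced Sox9 RNA; it lies at chr11:112644310-112645162 (mm9, plus strand).
Sox9: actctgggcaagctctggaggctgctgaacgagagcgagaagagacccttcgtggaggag

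**Figure D3:**
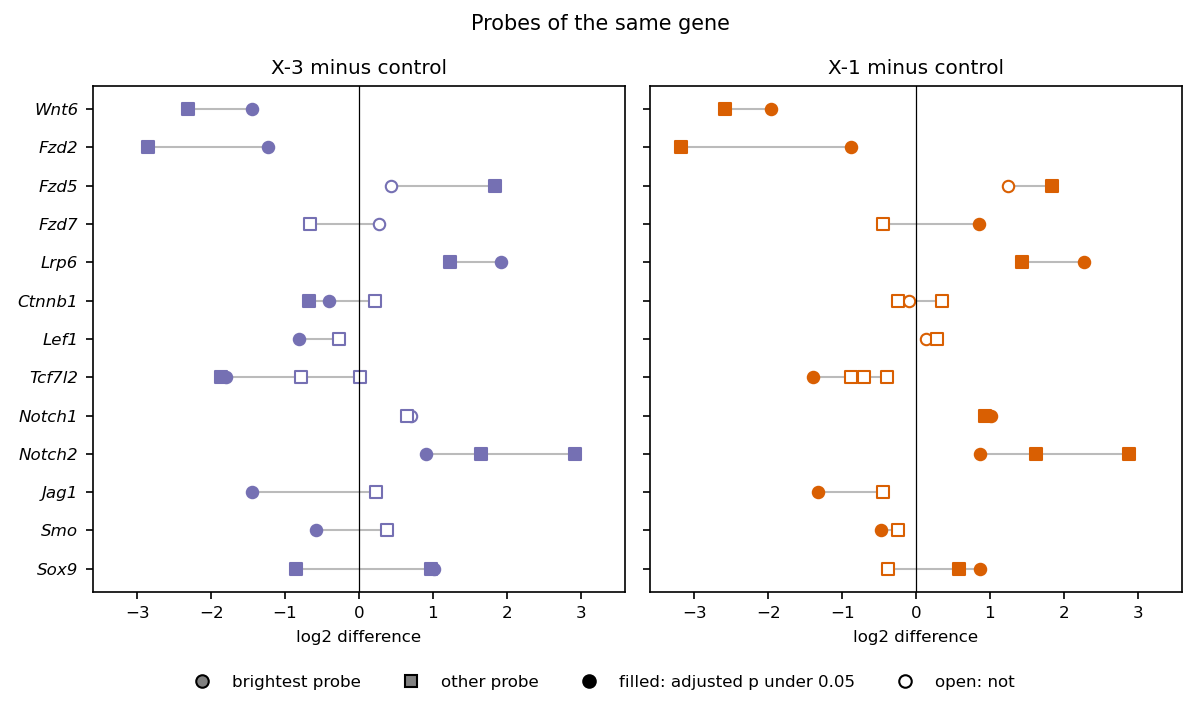
The log2 difference from control (x axis) of every usable probe of the 13 genes with more than 1, for X-3 (left) and X-1 (right); circles are the brightest probe, squares the others, and filled symbols passed an adjusted p of 0.05. Probes fell on both sides of 0 for 6 genes with X-3 and 3 with X-1, and only the Sox9 probes were called in both directions, with X-3.

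Scaling matters for the genes that were higher. When replicates 2 and 3 were scaled to 8 spike-in probes, the median difference of all genes moved by -0.714 with X-3 and by -0.898 with X-1. All 13 members called lower with X-3 and all 11 called lower with X-1 were still called, whereas 4 of 10 called higher with X-3 and 4 of 12 called higher with X-1 were still called higher. The rises that held were those of Lrp5, Lrp6, Ptch1 and Dkk3 with X-3 and of Lrp5, Lrp6, Ptch1 and Hey1 with X-1. With X-1, 5 of those 12 turned negative (Wnt4, Wnt5b, Notch2, Hes1 and Sox9), Wnt4 and Lef1 were called lower, and so were Fzd4 (-1.39), Fzd8 (-1.17) and Ctnnb1 (-0.98). Over all genes, 18.0% of calls were then higher with X-3 and 13.4% with X-1, in place of 52.6% and 49.9%.

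The direct comparison of the 2 compounds, 1 pair at the same dose and time, called 4 of the 31 genes, 1 higher with X-3 (Wnt4) and 3 lower (Fzd7, Lef1 and Hey1). Of all genes 10.9% were called (7.19% higher and 3.67% lower), so the share of members was close to that of the array. None of the members differed by 2-fold or more. The arrays of the 2 compounds did not overlap for 10 of the 31 genes, against 31.2% of all genes. The median difference, X-3 minus X-1, was -0.08 for the 31 and 0.02 for all genes.

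Wnt4 differed by 0.90 ± 0.11 (adjusted p 0.00379), and by 0.95, 0.89 and 0.86 on slides 1, 2 and 3. Lef1 differed by -0.94 ± 0.16 (adjusted p 0.0112), and by -0.53, -0.97 and -1.31 on the 3 slides. Both calls held on leaving out any 1 of the 9 arrays, with adjusted p up to 0.0226 for Wnt4 and 0.0493 for Lef1. Wnt4 was called in every other setting run, and Lef1 in every one but median scaling (-0.95, adjusted p 0.0602). By itself, the second Lef1 probe gave -0.55 and was not called (adjusted p 0.431).

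Hey1 differed by -0.57 ± 0.14 (adjusted p 0.0382), with slide values of -0.16, -0.92 and -0.63. Fzd7 differed by -0.58 ± 0.13 (adjusted p 0.0282), with slide values of -0.37, -0.84 and -0.54. Either call was lost on leaving out control replicate 2 or any X-3 or X-1 array of slides 2 and 3, and that of Hey1 also without control replicate 1 or 3 (adjusted p up to 0.138 for Hey1 and 0.105 for Fzd7). Both calls were also lost with median scaling, spike-in scaling, normexp, no filter on dim probes and the arrays of the 2 groups alone. In those settings adjusted p was 0.0754 to 0.213 for Hey1 and 0.0621 to 0.314 for Fzd7. The second Fzd7 probe gave -0.21 and was not called (adjusted p 0.836), nor was the mean of both Fzd7 probes (-0.4, adjusted p 0.417). The groups were also apart for Wnt6 (0.52, interval 0.14 to 0.89, adjusted p 0.0796) and Gli2 (0.47, interval 0.16 to 0.78, adjusted p 0.0627), which were higher in X-3 arrays but not called.

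**Figure D4:**
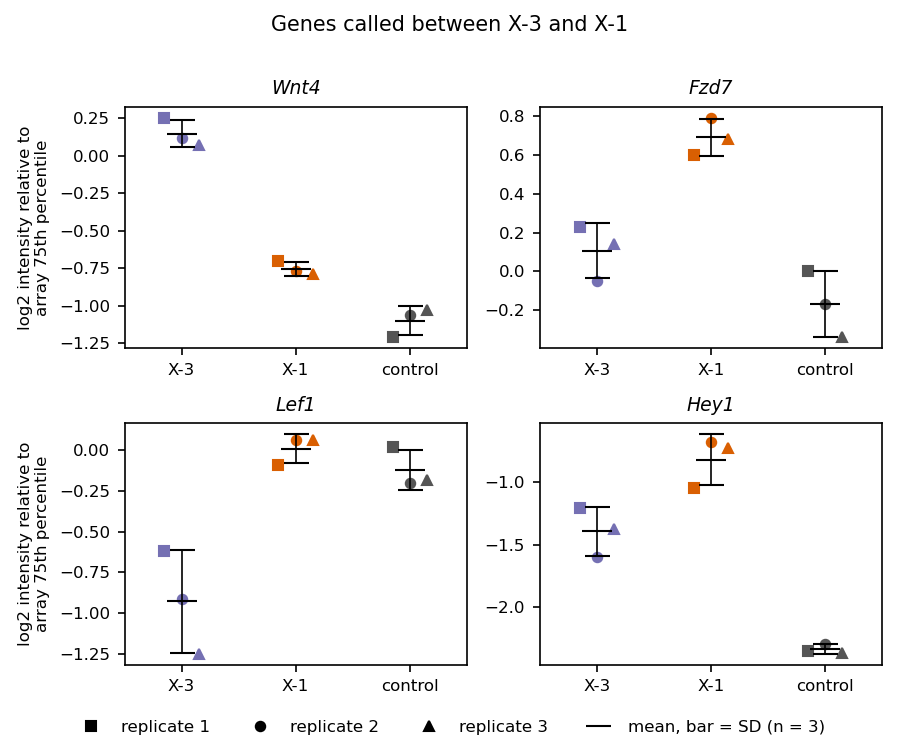
The level on each array (y axis, log2 intensity relative to the array's 75th percentile) of the 4 genes called between the compounds, by group, with the mean and SD of 3 arrays. X-3 arrays lie above X-1 arrays for Wnt4 and below them for Fzd7, Lef1 and Hey1.

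When X-3 replicate 1 was dropped, 11 members were called between the compounds, against 20.3% of all genes. The 4 above remained, and 7 joined them. Higher with X-3 were Axin1 (0.77, adjusted p 0.025) and Wnt5b (0.62, adjusted p 0.0159). Lower were Lrp6 (-0.48), Fzd2 (-0.47), Sfrp2 (-0.46), Ctnnb1 (-0.45) and Fzd1 (-0.41), with adjusted p between 0.0194 and 0.0417. With all arrays these 7 were not called, and their 95% confidence intervals ran from -0.22 to 0.86 for Wnt5b and from 0.00 to 1.05 for Axin1. The intervals of Notch2 (-0.22 to 0.31), Dkk3 (-0.28 to 0.42) and Sox9 (-0.19 to 0.48) exclude a 2-fold difference between X-3 and X-1 in either direction, while that of Fzd5 (-2.09 to 0.48) does not.

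**Figure D5:**
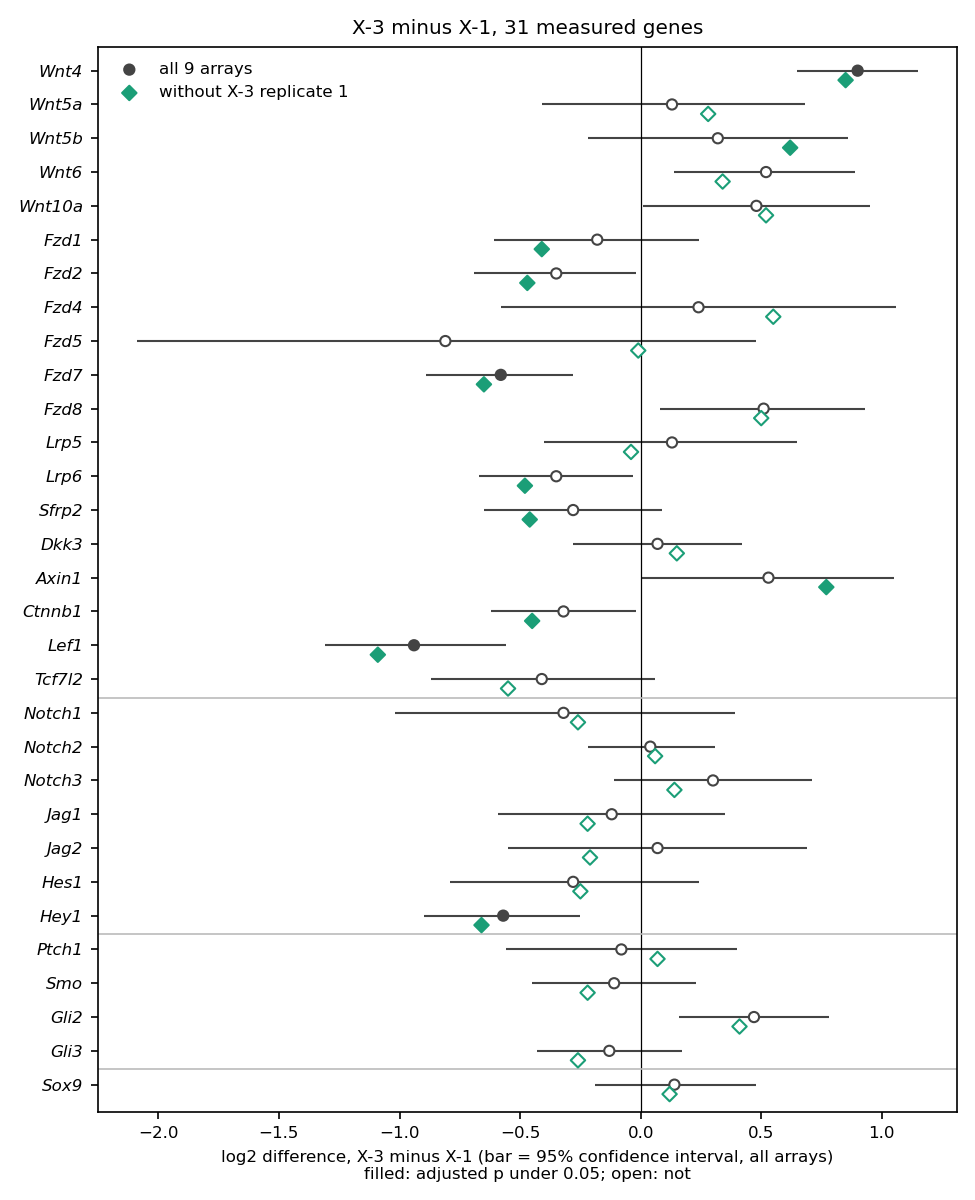
The log2 difference X-3 minus X-1 (x axis) of the 31 measured genes (y axis) with 95% confidence intervals over all 9 arrays (circles), and the same difference without X-3 replicate 1 (diamonds). Filled symbols passed an adjusted p of 0.05, 4 with all arrays and 11 without that array.

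Start-site sequences were available from RefSeq (GRCm38.p6) for 27 of the 40 genes, 36 stretches of 300 bases, each reaching across a start. They were searched on both strands for 3 letter patterns of which none contains another: CTTTGA for TCF/LEF factors, TGGGAA for RBPJ, the DNA-binding partner of Notch, and GACCACCCA for Gli factors. CTTTGA was in 4 of the 36 stretches, against 16.0% of all 32851, TGGGAA in 5 against 25.6%, and GACCACCCA in 0 against 0.253%. The 5 stretches with TGGGAA belong to 3 genes and include Lef1 stretches that overlap each other. Median GC content was 68.0% in the member stretches and 52.7% in all, and its part in these shares was not tested. The stretches with CTTTGA belong to Fzd1, Jag1, Lef1 and Wnt5b. All 4 are shown, those of Fzd1 and Jag1, genes that fell with both compounds, of an internal start of Lef1, a gene that fell with X-3, and of Wnt5b, a gene that rose with both, with the pattern, or its reverse complement TCAAAG, in capitals. The Lef1 stretch holds the pattern in 2 places. A match describes letters only.
Fzd1, chr5:4758167-4758466, minus strand: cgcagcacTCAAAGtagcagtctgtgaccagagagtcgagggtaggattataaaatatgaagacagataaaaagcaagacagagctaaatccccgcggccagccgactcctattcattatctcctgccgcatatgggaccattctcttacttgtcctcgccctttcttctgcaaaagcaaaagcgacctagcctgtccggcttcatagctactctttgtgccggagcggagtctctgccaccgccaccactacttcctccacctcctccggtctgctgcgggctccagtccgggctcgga
Jag1, chr2:137116471-137116770, minus strand: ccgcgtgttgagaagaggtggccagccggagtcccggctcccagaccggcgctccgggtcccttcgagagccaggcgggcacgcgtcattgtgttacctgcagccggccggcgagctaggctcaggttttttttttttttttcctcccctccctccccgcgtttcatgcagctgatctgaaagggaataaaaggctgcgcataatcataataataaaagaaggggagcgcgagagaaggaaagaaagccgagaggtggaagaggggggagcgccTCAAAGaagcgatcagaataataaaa
Lef1, chr3:131156044-131156343, plus strand: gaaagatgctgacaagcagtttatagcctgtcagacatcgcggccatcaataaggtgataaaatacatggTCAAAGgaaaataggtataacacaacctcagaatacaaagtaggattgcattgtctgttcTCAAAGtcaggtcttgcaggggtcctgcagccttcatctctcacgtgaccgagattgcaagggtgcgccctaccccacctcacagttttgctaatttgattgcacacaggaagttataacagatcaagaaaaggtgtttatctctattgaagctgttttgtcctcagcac
Wnt5b, chr6:119449337-119449636, minus strand: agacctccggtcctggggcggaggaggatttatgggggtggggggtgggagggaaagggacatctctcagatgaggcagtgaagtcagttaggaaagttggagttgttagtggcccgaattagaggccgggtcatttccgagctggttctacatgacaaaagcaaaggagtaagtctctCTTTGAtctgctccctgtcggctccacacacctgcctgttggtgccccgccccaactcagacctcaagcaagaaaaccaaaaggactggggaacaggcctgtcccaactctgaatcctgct

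Other genes of the same pathways were called in both directions, at shares to be read against the 55.7% (X-3) and 56.5% (X-1) of all genes. Of those named below, Rspo2, Ror1, Sfrp4, Dner, Dll3, Dll4 and Dhh were tested only through the groups in which they were bright, so that the filter favoured their calls. Of 57 further Wnt pathway genes 35 were measured, with 10 higher and 8 lower with X-3 (51.4% called) and 10 higher and 10 lower with X-1 (57.1%), both near the share of all genes. Lgr4, a receptor for R-spondins, rose by 3.69 with X-3 and 4.04 with X-1, though its 3 probes ranged down to -0.53 and -0.26. Rspo2, an R-spondin ligand, was lower by -2.33 ± 0.41 with X-3 (2 of 3 arrays above background) and at least 8.81-fold lower with X-1 (0 of 3). Ror1, a Wnt5a receptor, was at least 5.86-fold lower with X-3 and 4.80-fold lower with X-1, and Sfrp4, a secreted inhibitor, at least 3.13-fold and 2.56-fold lower. Between the compounds, 4 were higher with X-3 and 2 lower (17.1%, against 10.9% of all genes), among them Rspo2 (at least 1.75-fold higher), Btrc (1.08), Pygo2 (0.78) and Fzd3 (-0.63).

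Of 13 genes known as beta-catenin targets outside the members, 7 were measured. With X-3 2 were higher and 2 lower (57.1%, near the share of all genes), and with X-1 3 were higher and 2 lower (71.4%). Ccn5 (also called Wisp2) rose by 4.13 ± 0.17 with X-3 and 3.77 ± 0.17 with X-1, and Myc rose by 1.62 and 1.97. Ccnd1, the cyclin of early G1, was lower by -1.90 and -2.07, and Ccn4 (Wisp1) by -1.42 and -1.98. Both directions were thus present among the targets. Between the compounds Apcdd1 was lower with X-3 (-0.99, its other probe 0.15) and Ccn4 higher (0.56).

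Of 40 further Notch pathway genes 32 were measured, 13 higher and 8 lower with X-3 and 13 higher and 8 lower with X-1 (65.6% in both). Rbpj, the DNA-binding partner of cut Notch, rose by 2.15 ± 0.20 with X-3 and 2.33 ± 0.20 with X-1. Dner, an atypical Notch ligand, was at least 4.76-fold higher with X-3 and 7.09-fold higher with X-1, and Dll3, an inhibitory ligand, at least 1.94-fold and 2.35-fold, both against control arrays that were not above background. Adam17, a protease that can cut Notch, rose by 1.43 with X-3 and 1.27 with X-1. Aph1b, a gamma-secretase subunit, was lower by its brightest probe (-1.32 and -1.35), while its 3 probes reached up to 1.1 and 0.31. Between the compounds Mib2 (0.90) and Dll4 (at least 1.20-fold, above background on 3 X-3, 0 X-1 and 1 control arrays) were higher with X-3 and Adam10 lower (-0.44).

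Of 21 further Hedgehog genes 18 were measured, with 4 higher and 5 lower with X-3 (50% called) and 4 higher and 8 lower with X-1 (66.7%). Dhh, a Hedgehog ligand, was at least 2.63-fold higher with X-3 and 4.80-fold higher with X-1, against control arrays not above background. Ift88 (-1.26 with X-3 and -1.66 with X-1), a part of the transport machinery of cilia, was lower. Cdon (-1.35 and -1.41), a co-receptor, was lower by its brightest probe, and its other probe gave 3.47 and 3.06. Kif3a (1.39 and 1.30), a motor for cilia, was higher by its brightest probe, with -0.15 and -0.47 by the other. Between the compounds Evc (1.04), Prkaca (0.56) and Boc (0.55) were higher with X-3.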

How the data were processed

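Total RNA (0.5 µg) had been labelled with Cy3, per the labels' protocols. The deposited intensity values came from Agilent Feature Extraction, version 10.5.1.1 for replicate 1 and 10.7.3.1 for replicates 2 and 3, per the file headers, while the submitters' processing notes name version 9.1. Spatial and multiplicative detrending were on for replicate 1, per the file headers; for replicates 2 and 3 these settings are not given in the sources used here. The scan day of slide 1 differed from that of the other slides. The deposited series table holds a score per probe, whose making is not stated; each of its columns had median -0.12 and tracked log2 intensity (r of 0.998 or more, 3.95 to 4.25 log2 units per score unit), so its exact scale stays unknown and it served as an alternative. Probe positions in the files are on mm9.

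The 41174 probes were named from the replicate 1 files, whose probe order all files share, updated through accession, symbol or synonym in a RefSeq table (GRCm38.p6). Probes whose every spot was an outlier on an array (214) were left out, spots of a probe were averaged (245 probes), and log2 values were reduced by each array's 75th percentile. Probes well above background on all 3 arrays of a group were kept (25288), and the brightest per gene was used (16736 genes; 5918 had more than 1). limma 3.58.1 in R 4.3.3 (lmFit, eBayes, 1 fit of 9 arrays, two-sided, Benjamini-Hochberg over 16736 genes, threshold 0.05) gave differences with standard errors; p-values of other probes are adjusted over all kept probes. The number of arrays limits the precision. Where a group was above background on 0 arrays, the bound is the brighter mean over, per array, the higher of the probe's own signal and the lowest signal called well above background. Figures were drawn with matplotlib 3.10.9. In simulated data for X-1 against control (16736 genes, 200 changed), 61% of changes of 1 and 83% of changes of 2 on the log2 scale were recovered, with 8 false calls. In the real comparison 56.5% of genes were called, a far larger share than was changed in the simulation. The Benjamini-Hochberg cutoff depends on that share, so the recovery in the real comparisons cannot be read from these values.

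Every member is accounted for; array values are given for members called at 2-fold or more, called between the compounds, or whose probes disagree in sign, and for a few more; in other lists up to 4 called genes with the largest differences are named. The members and lists were chosen with earlier results of these data known. Whether replicate numbers pair arrays was checked by correlating deviations from group means. The correlations were 0.238, 0.112 and 0.230 for X-3 and control and 0.517, 0.318 and 0.271 for X-1 and control, so numbers, which mark the shared slide, were taken to pair arrays there. For X-3 and X-1 they were -0.041, -0.182 and 0.156, and numbers were not taken to pair arrays. The main fit did not use the pairing, so its standard errors and p-values treat arrays as unpaired. The slide as a block was run only as an alternative setting.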

Additional observations from a re-analysis of the deposited data

Results flagged for a closer look

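Of the 9 members that were too dim to test, 3 had a signal well above background on a treated array and on 0 control arrays. Gli1, a Gli factor and pathway target, was above background on 2 of 3 X-3 arrays (-5.87, -5.51 and -5.61) and on 0 X-1 arrays (-6.0, -5.69 and -5.69), against -6.43, -6.32 and -6.07 in control arrays. Wnt10b, a ligand, was above background on 1 X-3 array (-6.33, -6.44 and -5.60) and on 0 X-1 arrays (-7.67, -6.68 and -7.35), against -7.10, -7.54 and -7.33 in control arrays. Dkk2, a secreted inhibitor, was above background on 0 X-3 arrays (-7.70, -8.62 and -8.44) and on 1 X-1 array (-5.07, -8.08 and -7.88), against -8.28, -8.64 and -8.15 in control arrays. These signals lie outside the tests above, and no difference is called from them.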

How the results depend on the processing

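The counts of members called against control stayed within 1.5 times of 23 in every setting run, between 18 and 27 with X-3 and between 18 and 26 with X-1. Scaling to spike-in RNA turned Wnt4 to -0.64, Wnt5b to -0.23, Hes1 to -0.25, Lef1 to -0.65, Notch2 to -0.07 and Sox9 to -0.02 with X-1; using the 75th percentile on replicates 2 and 3 alone, chosen after seeing the data, turned Fzd4 to 0.33 with X-3. Median scaling shifted all genes' median by -0.227 with X-3 and by -0.218 with X-1, and left 37.8% and 37.2% of calls higher, in place of 52.6% and 49.9%.

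The comparison of X-3 with X-1 depended on the processing. Over the whole table it called 1819 genes, and 494 with median scaling, 6461 with replicates 2 and 3 alone, 1045 with normexp (on median signals, since the mean signal is not in every file), 577 with no filter on dim probes and 759 with the arrays of the 2 groups alone; of the members it called 4, and 1, 14, 2, 2 and 2 in those settings. Leaving out 1 array gave 627 to 3398 genes, beyond 1.5 times the full count without X-3 replicate 1 (3398), 2 (761) or 3 (784), X-1 replicate 2 (627) or 3 (650) or control replicate 3 (1100). It gave 2 to 11 members, 11 without X-3 replicate 1 and 2 without X-3 replicate 2 or 3, either of X-1 replicates 2 and 3, or control replicate 2. In that comparison 46.3% of calls were higher with X-3 on replicates 2 and 3 alone and 85.5% with spike-in scaling, in place of 66.2%. The causes were not tested.

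With the slide as a replicate block 24 members were called with X-3, 23 with X-1 and 3 between the compounds; besides Hes1 with X-3 and Hey1 between the compounds (adjusted p 0.061) it changed no other call. Over the whole table the block gave 9819, 10002 and 1800 calls. Dim genes (Ptch1, Dkk3, Wnt10a, Wnt5b, Jag2) are limited by their signal over background.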
